A study of Homo sapiens with 6 samples.

Results

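The BCL2 family controls whether the outer mitochondrial membrane is opened during apoptosis. Pro-survival members bind and restrain the effectors BAX and BAK1, and BH3-only members either block the pro-survival proteins or activate the effectors directly. Many myeloid leukaemia cells depend on MCL1 or BCL2, and BH3-only transcripts are known to rise under stress signalling. The 10 family genes described here were taken by symbol from the deposited table of 18806 gene symbols, and all 10 had a row in each of the 6 libraries. They are 4 BH3-only genes (BBC3, PMAIP1, BCL2L11 and BID), 2 effectors (BAX and BAK1) and 4 pro-survival genes (MCL1, BCL2, BCL2L1 and BCL2A1).

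The libraries were poly(A)-selected RNA of Mono-mac-6, a human monocytic acute myeloid leukaemia line with the MLL-AF9 fusion. One Cas9-expressing clone was transduced with lentivirus carrying sgNS, a control guide, or one of the guides against METTL1, sgMETTL1.3 or sgMETTL1.6, and each guide has 2 libraries. METTL1 is the methyltransferase that places N7-methylguanosine on tRNAs. The name of every value column holds the letters EV, which the labels do not explain. All 3 groups carry Cas9 and a guide vector. They were held under 10 µg/ml of blasticidin together with hygromycin B at 200 µg/ml and collected 8 to 10 days after transduction, so only cells present at harvest were read, and the result rests on 1 clone. Levels are TPM, a transcript's share of its library on a common scale, corrected for length, so that genes can be compared. Changes are differences of log2(TPM + 1) from limma, with p-values adjusted by Benjamini-Hochberg over the 10911 genes whose mean reached 1 TPM. Whether replicates were separate cultures is not labelled. The p-values therefore describe the spread among these libraries, which may be technical. Because the RNA is bulk, fewer cells with a transcript and less of it per cell cannot be told apart.

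METTL1 itself did not fall with both guides. METTL1 was read at 15.38 and 13.89 TPM with sgNS and at 18.29 and 16.56 TPM with sgMETTL1.3, and the lowest libraries, labelled sgMETTL1.6, had 11.15 and 11.69 TPM. The libraries labelled sgMETTL1.3 thus show no loss of METTL1 mRNA, and directions for that guide are drawn from the libraries as labelled. Gene-level TPM reads neither the edits at the cut nor the protein, which the series' design text says was checked by Western blot. Of 10 markers of the monocytic line, 7 had a mean of at least 1 TPM, among them LYZ, CD68 and SPI1. CD14, which marks mature monocytes, was low, at 0.76 and 0.90 TPM in the controls and 0.22 to 0.40 TPM with the guides. The T cell genes CD3D, CD3E and CD2, the erythroid gene HBB and the platelet genes PF4 and PPBP were listed at 0 in all 6 libraries. Replicates differed by a median of 2.42% to 3.15% over 1742 abundant genes.

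The comparison of both METTL1 guides with sgNS asks how the transcript balance of the family differs after METTL1 targeting. BBC3 and PMAIP1, both BH3-only, fell with both guides. BID, a BH3-only gene of death receptor signalling, and the effector BAK1 rose by smaller amounts. MCL1 and BCL2, which are pro-survival, fell in the libraries labelled sgMETTL1.3 and differed between the guides, while BAX and BCL2L1 did not pass the test. Of the 9 members tested, 7 passed (limma, adjusted p under 0.05), 2 higher and 5 lower, when 59.4% of all genes tested passed (32.6% higher and 26.8% lower). A log2 change of at least 0.5 in size was reached by 2 of the 9, BBC3 and PMAIP1, both lower, beside 8.37% of all genes (5.43% lower). Their changes were the 74th and the 158th lowest of 10911. All 4 guide libraries lay on one side of both controls for 7 of the 9 tested members, beside 60.2% of all genes (32.9% higher and 27.3% lower).

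**Figure D1:**
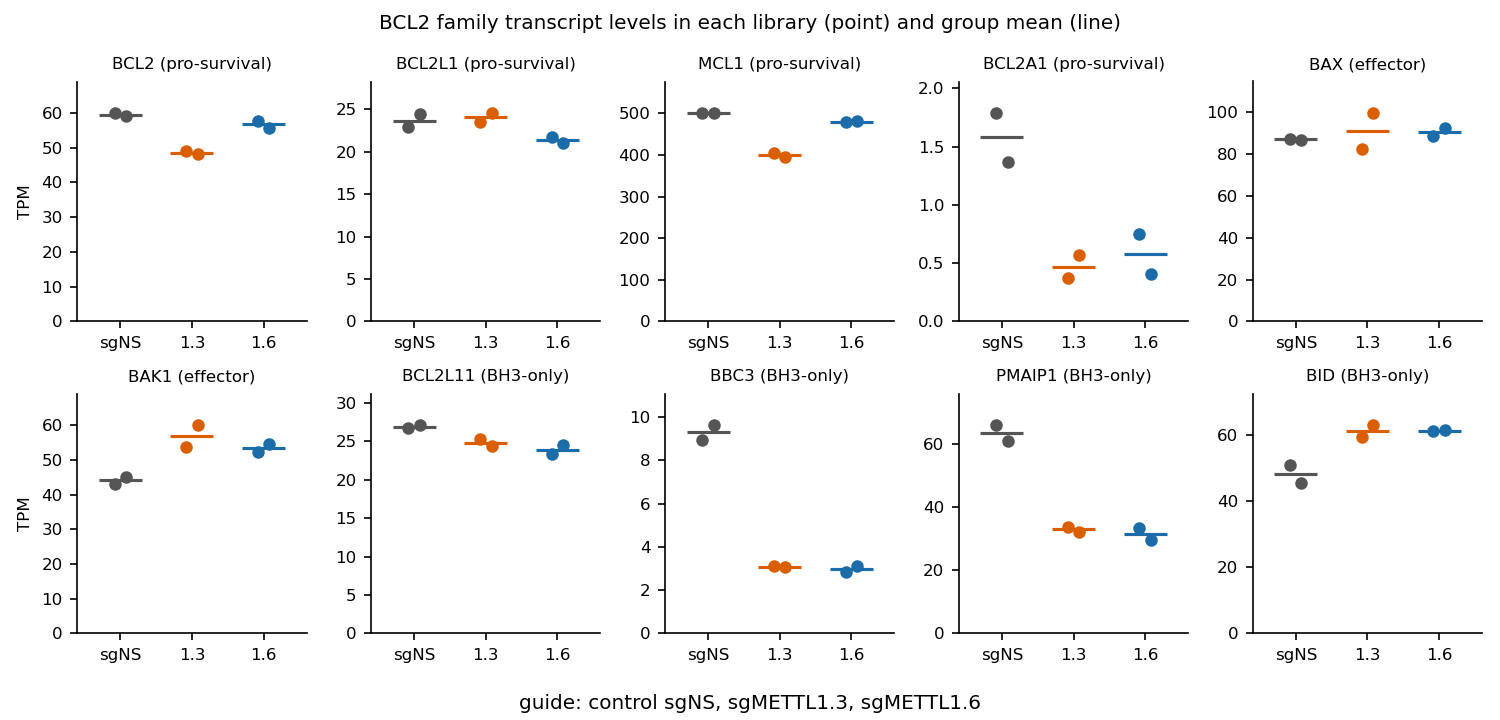
TPM (linear axis from 0) of each of the 10 genes in the 2 libraries of each group (sgNS is the control, 1.3 and 1.6 are the METTL1 guides); points are libraries and lines group means. BBC3 and PMAIP1 are lower in all 4 guide libraries, BID and BAK1 higher, and MCL1 and BCL2 are lowest in the libraries labelled sgMETTL1.3.

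BBC3 encodes PUMA, a BH3-only protein that binds every major pro-survival member. The gene (ENSG00000105327.17) lies on the minus strand of chromosome 19, 47220822 to 47232766 in GRCh38. Its level was 8.94 and 9.65 TPM in the controls, 3.12 and 3.05 TPM with sgMETTL1.3, and 2.83 and 3.12 TPM with sgMETTL1.6. The guide libraries were all well below the controls and overlapped each other. The mean fell to 33.2% of control with sgMETTL1.3 and 32.0% with sgMETTL1.6. The log2 change over both guides was -1.35 ± 0.074 (SE, limma, adjusted p = 7.23e-09). The guides differed by a log2 value of -0.04, with a 95% interval of -0.22 to 0.14. BBC3 was nonetheless the least abundant of the BH3-only members in every library.

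PMAIP1 encodes NOXA, a BH3-only protein that binds MCL1 and BCL2A1 and is known to promote MCL1 degradation. The gene (ENSG00000141682.11) lies on the plus strand of chromosome 18, 59899948 to 59904306. PMAIP1 stood at 66.17 and 61.07 TPM in the controls, 33.69 and 32.31 TPM with sgMETTL1.3, and 33.46 and 29.57 TPM with sgMETTL1.6. The groups of guide and control libraries did not overlap, and the guide means were 51.9% and 49.5% of control. The log2 change was -0.96 ± 0.053 (SE, limma, adjusted p = 8.88e-09). Between the guides the log2 difference was -0.07, with a 95% interval of -0.20 to 0.07. PMAIP1 was the most abundant BH3-only member in the controls and ranked below BID in each guide library.

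Because BBC3 and PMAIP1 fell together, the sequence upstream of their starts is shown, with that of BAX, which did not pass the test, for comparison. RefSeq gives windows of 250 bases before to 50 after a start on GRCh38.p14 for 9 of the 10 members (14 windows). Each stretch below runs from the first base of the window to the base before the most upstream annotated start. It is read on the strand of the gene, at chr18:59899746-59899947 (plus) for PMAIP1, chr19:47232767-47232917 (minus) for BBC3 and chr19:48954625-48954814 (plus) for BAX. Capitals mark the E-box CACGTG and the core TGACG of the cAMP response element, on either strand.
PMAIP1: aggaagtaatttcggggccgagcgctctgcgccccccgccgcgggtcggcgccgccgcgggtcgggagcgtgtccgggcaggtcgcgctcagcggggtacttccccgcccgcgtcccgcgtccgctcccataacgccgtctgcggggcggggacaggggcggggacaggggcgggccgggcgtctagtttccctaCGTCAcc
BBC3: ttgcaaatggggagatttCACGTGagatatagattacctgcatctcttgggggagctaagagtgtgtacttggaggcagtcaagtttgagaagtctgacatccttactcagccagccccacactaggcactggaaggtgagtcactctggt
BAX: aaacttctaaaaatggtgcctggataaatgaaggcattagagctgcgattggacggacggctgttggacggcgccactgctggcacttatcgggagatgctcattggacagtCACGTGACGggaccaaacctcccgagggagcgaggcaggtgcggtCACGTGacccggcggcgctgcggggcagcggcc
The PMAIP1 window held 1 response element core, a sequence present in 24.6% of the 35116 RefSeq windows of this length. The windows of BAX and BCL2 and 1 window of BCL2L1 also held 1 core each, and that of BBC3 held 0. The BBC3 window held 1 E-box and the BAX window 4, of which 2 lie in the stretch shown and 1 of those shares bases with a response element core. E-boxes were found in 7.26% of all windows, and some windows of BID held them too. Neither the full palindrome TGACGTCA (1.85% of windows) nor TGATGNAA, a letter pattern of CEBP-ATF composite sites (3.62%), was found in the windows of PMAIP1, BBC3 or BAX, and of the members only BCL2A1 held the latter. BBC3 has further starts that these windows do not cover, and a match describes letters only.

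BID links death receptors to mitochondria once caspase-8 has cut it. BID (ENSG00000015475.18, minus strand of chromosome 22, 17734138 to 17774770) was read at 50.67 and 45.43 TPM in the controls, 59.41 and 62.95 TPM with sgMETTL1.3, and 61.04 and 61.25 TPM with sgMETTL1.6. All guide libraries were above both controls. The log2 change was 0.34 ± 0.047 (SE, limma, adjusted p = 3.58e-05), and the guide means were both 127% of control. BCL2L11 encodes BIM, which binds all pro-survival members and can activate BAX and BAK1. It stood at 26.66 and 27.13 TPM in the controls, 25.32 and 24.33 TPM with sgMETTL1.3, and 23.27 and 24.51 TPM with sgMETTL1.6. The guide libraries were all lower, by a log2 change of -0.14 ± 0.046 (SE, limma, adjusted p = 0.0204). That call was lost without sgNS replicate 1 (adjusted p = 0.0733), without sgNS replicate 2 (0.123), without sgMETTL1.3 replicate 2 (0.0596) and with no filter on low values (0.0516). GENCODE 29 lists 17 protein-coding transcripts of BCL2L11, whose protein isoforms differ in potency and which gene-level TPM sums.

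The 4 BH3-only transcripts together came to 152.44 and 143.28 TPM in the controls, 121.54 and 122.64 TPM with sgMETTL1.3, and 120.6 and 118.45 TPM with sgMETTL1.6. The sum was lower in every guide library. Its make-up moved more than its size. PMAIP1 made up 43.0% ± 0.56 of the sum in the controls (SD, n = 2) and 27.0% ± 0.97 and 26.4% ± 1.97 with the guides, whereas BID went from 32.5% ± 1.08 to 50.1% ± 1.73 and 51.2% ± 0.78. BCL2L11 stayed between 17.5% and 20.8% in the 6 libraries. The sum is a description of these 4 members, with no test. It leaves out other BH3-only genes, among them BIK, BAD and BMF, whose log2 changes over both guides were 0.69, 0.38 and -0.04.

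**Figure D2:**
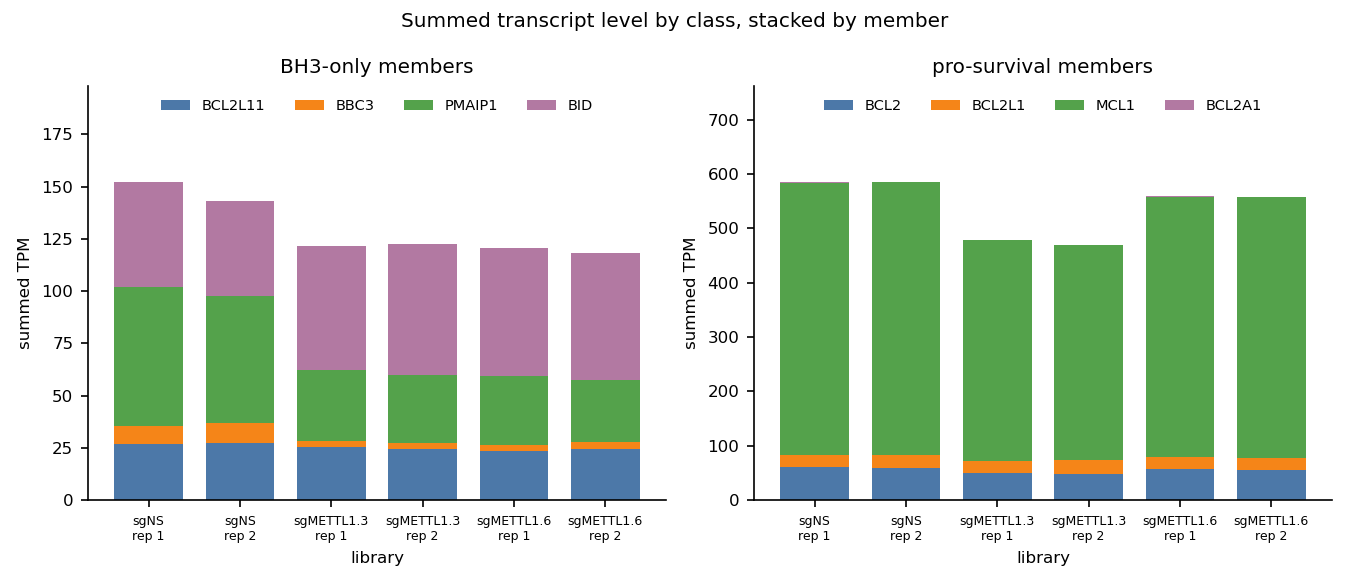
Summed TPM (linear axis from 0) of the BH3-only members (left) and the pro-survival members (right) in each of the 6 libraries, stacked by gene. BID replaces PMAIP1 as the largest part of the BH3-only sum in the 4 guide libraries, and MCL1 makes up over 84% of the pro-survival sum in all 6.

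BAX and BAK1 are the effectors that form pores in the outer membrane. BAK1 (ENSG00000030110.12, minus strand of chromosome 6, 33572547 to 33580293) was read at 43.07 and 45.19 TPM in the controls, 53.63 and 60.13 TPM with sgMETTL1.3, and 52.42 and 54.57 TPM with sgMETTL1.6. Every guide library was higher than both controls. The log2 change was 0.31 ± 0.048 (SE, limma, adjusted p = 0.000101). With sgMETTL1.6 alone it was 0.27 (adjusted p = 0.00129), and 0.0798 with no filter on low values. BAK1 has processed pseudogenes (BAK1P1 and BAK1P2) that could share its reads, so its level is less certain. BAX was at 87.43 and 86.98 TPM in the controls, 82.73 and 99.85 TPM with sgMETTL1.3, and 88.9 and 92.41 TPM with sgMETTL1.6. The libraries labelled sgMETTL1.3 lay on both sides of the controls. The log2 change was 0.06 with a 95% interval of -0.07 to 0.18 (limma, adjusted p = 0.41), and it was 0.12 (adjusted p = 0.0177) without sgMETTL1.3 replicate 1 and -0.01 (adjusted p = 0.852) without sgMETTL1.3 replicate 2. The level of BAK1 relative to BAX was 0.49 and 0.52 in the controls and 0.59 to 0.65 in the guide libraries.

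MCL1, the pro-survival protein that restrains BAK1 and binds NOXA, was by far the most abundant member. The gene (ENSG00000143384.12) lies on the minus strand of chromosome 1, 150574551 to 150579738. MCL1 stood at 500.16 and 501.51 TPM in the controls, 405.88 and 396.24 TPM with sgMETTL1.3, and 478.71 and 481.48 TPM with sgMETTL1.6. Both guide groups were below the controls, and the libraries labelled sgMETTL1.3 were also below those labelled sgMETTL1.6. The log2 change was -0.32 ± 0.029 with sgMETTL1.3 (SE, limma, adjusted p = 1.17e-06) and -0.06 ± 0.029 with sgMETTL1.6 (adjusted p = 0.101). The latter passed when ribosomal protein genes were left out of the scaling (-0.075, adjusted p = 0.0445) and with the replicate number as a block (-0.061, adjusted p = 0.0402). Tested directly, MCL1 was higher with sgMETTL1.6 than with sgMETTL1.3 by a log2 value of 0.26 (limma, adjusted p = 8.43e-05).

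BCL2, the target of venetoclax, had the same order of groups. BCL2 (ENSG00000171791.12, minus strand of chromosome 18, 63123346 to 63320128) was at 60.05 and 58.99 TPM in the controls, 48.96 and 48.21 TPM with sgMETTL1.3, and 57.81 and 55.71 TPM with sgMETTL1.6. The libraries labelled sgMETTL1.6 lay just under the controls and well above those labelled sgMETTL1.3. The log2 change was -0.29 ± 0.044 with sgMETTL1.3 (SE, limma, adjusted p = 9.37e-05) and -0.07 ± 0.044 with sgMETTL1.6 (adjusted p = 0.217). The direct difference between the guides was 0.22 (limma, adjusted p = 0.00435). With no filter on low values the model was refitted to 18806 genes, and the adjusted p of that difference was 0.0537 (limma). MCL1 and BCL2 were the 2 of 9 members that differed between the guides, beside 23.0% of all genes tested (7.23% higher and 15.8% lower with sgMETTL1.6). In 95% intervals, the guide difference of the other 7 tested members lay between -0.28 and 0.14.

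BCL2L1 encodes BCL-XL and, from a shorter transcript, a pro-apoptotic form that gene-level TPM cannot separate. It was at 22.84 and 24.39 TPM in the controls, 23.48 and 24.57 TPM with sgMETTL1.3, and 21.74 and 21.05 TPM with sgMETTL1.6. The libraries labelled sgMETTL1.6 were the lowest, by a log2 change of -0.14 (95% interval -0.26 to -0.01) that did not pass the adjusted test (limma, adjusted p = 0.0602). It passed when ribosomal protein genes were left out of the scaling (-0.151, adjusted p = 0.0396) and with the replicate block (-0.136, adjusted p = 0.0383). With sgMETTL1.3 the log2 change was 0.02 (adjusted p = 0.732), and its sign turned with each other scaling. BCL2A1 encodes BFL-1, a pro-survival protein of myeloid cells that NF-kB is known to induce. It was at 1.79 and 1.37 TPM in the controls, 0.37 and 0.57 TPM with sgMETTL1.3, and 0.75 and 0.41 TPM with sgMETTL1.6, below controls in every guide library. Its mean of 0.877 TPM kept it out of the main test. With no filter on low values the log2 change over both guides was -0.76 (limma, adjusted p = 0.0338), with -0.81 for sgMETTL1.3 (adjusted p = 0.041) and -0.71 for sgMETTL1.6 (adjusted p = 0.0649).

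**Figure D3:**
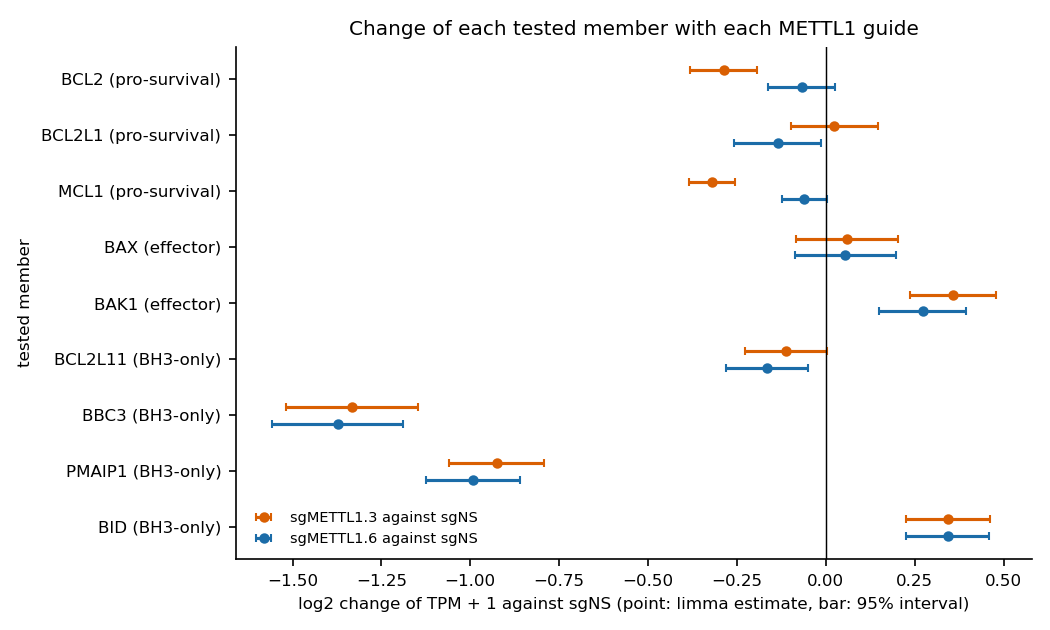
Change of log2(TPM + 1) against sgNS for the 9 tested members with each METTL1 guide; points are limma estimates and bars 95% intervals. The guides give nearly equal values for BBC3, PMAIP1 and BID, and separate for MCL1 (-0.32 and -0.06) and BCL2 (-0.29 and -0.07).

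Set side by side over both guides, the classes had median log2 changes of -0.55 (4 BH3-only members), 0.19 (2 effectors) and -0.18 (3 tested pro-survival members), beside 0.02 for all genes tested. Among these members the BH3-only class was the most mixed, from -1.35 to 0.34, and BIK, BAD and BMF are not counted in it. In this class 3 members fell and 1 rose, in the effectors 1 rose, and of the pro-survival genes 2 fell. The call of BCL2L11, which is among the BH3-only genes that fell, was lost in some reruns. Of the 3 tested pro-survival genes, 2 were called lower with sgMETTL1.3 (median -0.29) and 0 with sgMETTL1.6 (median -0.07). With sgMETTL1.3 alone 6 of 9 members passed, 2 higher and 4 lower, beside 58.5% of all genes (34.3% higher and 24.2% lower). With sgMETTL1.6 alone 5 passed, 2 higher and 3 lower, beside 51.0% (25.7% higher and 25.3% lower). These comparisons share the control libraries.

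The pro-survival sum was 584.84 and 586.26 TPM in the controls, 478.69 and 469.59 TPM with sgMETTL1.3, and 559.01 and 558.65 TPM with sgMETTL1.6. The sum of the 4 BH3-only members, without BIK, BAD and BMF, was therefore 26.1% and 24.4% of the pro-survival sum in the controls. It was 25.4% and 26.1% with sgMETTL1.3, and 21.6% and 21.2% with sgMETTL1.6. Both libraries labelled sgMETTL1.6 lay below the controls on this measure, and those labelled sgMETTL1.3 lay within or just above them. Ratios to PMAIP1 and BBC3, the members that fell most, gave another order, and their rise follows from that fall. There were 7.56 and 8.21 MCL1 transcripts per PMAIP1 transcript in the controls, 12.1 and 12.3 with sgMETTL1.3, and 14.3 and 16.3 with sgMETTL1.6. For BCL2 over BBC3 the ratio was 6.72 and 6.11 in the controls and 15.7 to 20.4 in the guide libraries. MCL1 relative to BID went the other way, since MCL1 was lower and BID higher in every guide library. These are ratios of transcripts and do not read protein.

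**Figure D4:**
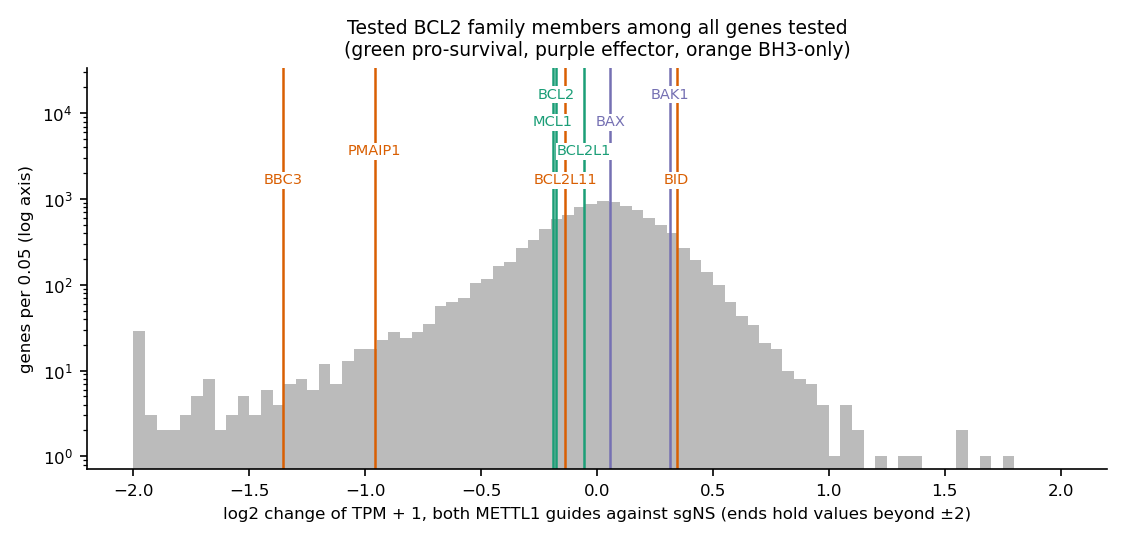
Histogram of the log2 change over both METTL1 guides for all 10911 genes tested (gene number on a log axis), with lines at the 9 tested members. BBC3 (-1.35) and PMAIP1 (-0.96) lie in the lower tail, and the other 7 lie between -0.19 and 0.34.

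Among the members, BCL2 and MCL1 had the most alike profiles over the 6 libraries, with a root mean square difference of 0.026 on the centred log2 scale. BCL2L1 and BCL2L11 came next at 0.078, about as large as their own profile sizes measured the same way (0.078 and 0.074). The measure thus also ranks genes that changed little as alike. BAK1 and BID came to 0.079. BBC3 and PMAIP1 came to 0.21, against profile sizes of 0.64 (BBC3) and 0.46 (PMAIP1), further apart than pairs such as BCL2L1 and BAK1 (0.18). Of the 10910 other genes, those nearest to PMAIP1 were CEBPG (0.040), TARS (0.042) and OGFRL1 (0.042). Nearest to BBC3 were APOL6 (0.050), C9orf91 (0.060) and SLC7A1 (0.062). Nearest to MCL1 were FDPS (0.020), PGRMC2 (0.024) and ENAH (0.024), and nearest to BCL2 were PPP2R5C, TRMT10A and RPL39 (0.017 to 0.018). Nearest to BAK1 were TIMM10, PPAN and CXXC1 (0.011 to 0.015), and nearest to BID were SLC46A3, C19orf53 and POLR2C (0.032 to 0.037).

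The rest of the BCL2 family, 14 genes of which 9 were tested, moved in both directions, with 5 higher and 2 lower. As for the lists that follow, this stands beside 32.6% of all genes tested higher and 26.8% lower (59.4% called), and a share near these says nothing particular of a list. The lists were chosen with earlier results of these data known, so a share far from these cannot be read as a result either. The BH3-only gene BIK rose from 13.75 and 13.56 TPM to 19.43 and 22.14 TPM with sgMETTL1.3 and 25.36 and 23.87 TPM with sgMETTL1.6 (log2 change 0.69 ± 0.058, SE, limma, adjusted p = 4.42e-07). BIK was higher in all guide libraries, opposite to BBC3 and PMAIP1. BAD, a BH3-only protein that binds BCL2 and BCL-XL and was named after its values were seen, rose too (0.38, limma, adjusted p = 0.000232, and 0.0565 with no filter on low values). BNIP3L, a mitophagy receptor, fell from 29.15 and 28.51 TPM to between 17.72 and 22.58 TPM (log2 change -0.54), whereas its relative BNIP3, also named after its values were seen, rose by 0.31. BMF, a BH3-only gene linked to cytoskeletal signals and named for the same reason, was at 27.81 and 28.82 TPM in the controls, 32.58 and 31.67 TPM with sgMETTL1.3, and 22.75 and 24.67 TPM with sgMETTL1.6. BMF lay above the controls with one guide and below them with the other. The untested members of this list (BCL2L10, BOK, HRK, BCL2L14 and BCL2L15) were under 1 TPM in every library.

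Downstream of the family, genes of the apoptosome and executioner list rose or did not pass (13 tested, 7 higher and 0 lower, median log2 change 0.23), beside 59.4% of all genes called and 32.6% higher. The mitochondrial nuclease ENDOG rose by 0.55 (adjusted p = 8.38e-07), the caspase-activated nuclease DFFB by 0.51 and the mitochondrial flavoprotein AIFM1 by 0.30. Of the outer membrane partners 4 of 5 rose, with VDAC3, an outer membrane channel, at 0.41 and MTCH2, the membrane receptor of cleaved BID, at 0.36. Inhibitors of apoptosis proteins went both ways (5 tested, 1 higher and 2 lower). BIRC5, a mitotic protein also called survivin, rose by 0.38, and the caspase inhibitor XIAP fell by 0.21 on the log2 scale. Of 8 genes that act on MCL1 protein turnover, 1 rose and 2 fell. GSK3A, a kinase that marks MCL1, rose by 0.23, and the mitochondrial ubiquitin ligase MARCHF5, listed under its older name MARCH5, had a log2 change of -0.26.

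Of 11 death receptor genes tested, 3 were higher and 4 lower (median log2 change 0.01), near the 59.4% of all genes called. The TRAIL receptor TNFRSF10B fell from 62.82 and 63.2 TPM to 33.21 and 33.35 TPM with sgMETTL1.3 and 30.39 and 30.92 TPM with sgMETTL1.6 (log2 change -0.96, limma, adjusted p = 3.6e-10). CASP8, the initiator that cuts BID, fell by 0.29 on the log2 scale, and CASP10, named after its values were seen, by 0.43. In the list of upstream regulators of BH3-only genes 8 of 11 fell and 0 rose (median log2 change -0.29), beside 26.8% of all genes lower and 32.6% higher. This list too was chosen with earlier results known, so its distance from those shares is no test of it. The stress response factors fell together, with TRIB3 at -2.33, DDIT3, which encodes CHOP and is known to act on BH3-only genes, at -1.31, ATF3 at -1.18 and ATF4 at -0.58. FOXO3, a known activator of BCL2L11 and BBC3 named after its values were seen, went from 55.61 and 58.44 TPM to between 40.52 and 41.76 TPM (log2 change -0.46). Whether any of these factors bears on BBC3 or PMAIP1 was not tested.

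**Figure D5:**
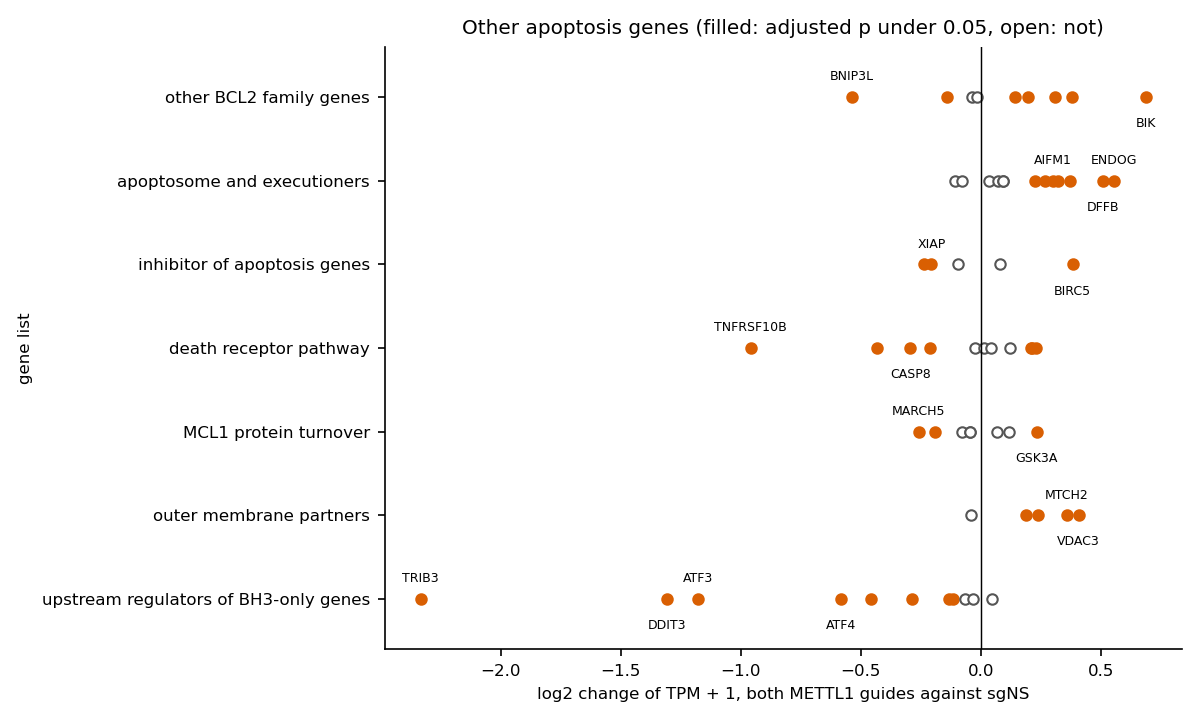
Log2 change over both METTL1 guides for the tested genes of 7 apoptosis lists; filled points passed limma's adjusted p of 0.05, open points did not, and labels mark the genes chosen by rule. Most of the upstream regulators lie to the left of 0 (8 of 11 lower) and most of the apoptosome and executioner genes to the right (7 of 13 higher). The lists were chosen with earlier results known.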

How the data were processed

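RNA sequencing of 6 libraries was analysed from the table the authors deposited, whose values are TPM. The submitters' processing notes name RSEM 1.2.31 and the build GRCh38. Aligner and annotation: not given in the sources used here. TPM keeps no read depth, so neither counting intervals nor floors can be had. Each value column bore the name of 1 sample, with 0 left over. Log2(TPM + 1) values were fitted for all 3 groups in 1 model with limma 3.58.1 in R 4.3.3, after leaving out genes under a mean of 1 TPM. The fit used a variance trend, had 3 residual degrees of freedom and 9.84 prior ones, and was tested on simulated data. Called means an adjusted p under 0.05. The members and gene lists were chosen with earlier results of these data known. Named from each list were called genes with a log2 change of at least 0.5 and the 2 of lowest p, and others are marked. Some genes are not reported here. Likeness is the root mean square difference of log2 values centred on each gene's mean. Positions are from GENCODE 29. Alternatives changed the pseudocount (0.1 or 5), the filter (none or 5 TPM), scaling, trend, replicate block and libraries.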

Additional observations from a re-analysis of the deposited data

Results flagged for a closer look

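Of the 37 named genes that were tested, 11 differed between the METTL1 guides by the direct test (limma, adjusted p under 0.05). Among all genes the share was 23.0%. The 37 include genes named after their values were seen, BMF among them, so their count cannot be compared with that share. Values are log2 differences of sgMETTL1.6 from sgMETTL1.3. Family members among the 11 were MCL1 (0.26) and BCL2 (0.22). Of the other family genes, BIK was higher with sgMETTL1.6 (0.24) and BMF lower (-0.42). CFLAR, the inhibitor of caspase-8 that was named after its values were seen, was lower (-0.25). The TRAIL ligand gene TNFSF10 (0.38) and the cytochrome c gene CYCS (0.21), both named after their values were seen, were higher. These upstream regulators were lower with sgMETTL1.6, namely TRIB3 (-0.68), ATF3 (-0.37) and DDIT3 (-0.27). METTL1 was lower too (-0.57), with 0.24 against the controls for sgMETTL1.3 and -0.33 for sgMETTL1.6. BMF and TNFSF10 moved in opposite directions against the controls, BMF by 0.18 with sgMETTL1.3 and -0.25 with sgMETTL1.6 (limma, adjusted p = 0.0144 and 0.00227), and TNFSF10 by -0.15 and 0.24 (adjusted p = 0.0488 and 0.0056).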

How the results depend on the processing

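BBC3, PMAIP1, BID and, over both guides, BAK1, MCL1 and BCL2 kept direction and call against sgNS under every alternative run. Of the other values, 20 of single genes changed sign, 12 lost and 11 gained a call, and the cause was not tested except where named. With no filter on low values, where more genes are tested, 3 members were called with sgMETTL1.6 (1 higher, 2 lower) and 1 between the guides; CYCS was also lost (adjusted p = 0.0805). With a pseudocount of 5 the BH3-only median was -0.48. Scaling by median ratios gave a pro-survival median of -0.20 and a change of the pro-survival sum of -78.13 TPM (main -69.07). Leaving out ribosomal protein genes gave a pro-survival median of -0.21 and a change of that sum of -102.6 TPM. The BH3-only sum then changed by -38.26 TPM (main -27.05). There the remaining genes were rescaled to the full total, which enlarges every TPM, so these sums are not on the scale of the main ones. The median of all genes moved by under 0.1 with each scaling. Under quantile, median-ratio and ribosomal-free scaling, BCL2L1 with sgMETTL1.3 was -0.001, -0.022 and -0.021, the guide difference of BAX 0.042, 0.041 and 0.029, and that of BID 0.043, 0.045 and 0.033. BCL2L11 with sgMETTL1.3 was then called (-0.145, -0.158 and -0.158). Leaving out each library in turn gave changes of the BH3-only sum of -31.63 (without sgNS replicate 2) to -22.47 TPM (without sgNS replicate 1). Over the same fits, METTL1 over both guides ranged from -0.116 to 0.022, BCL2L1 with sgMETTL1.3 from -0.021 to 0.07 (-0.007 without sgMETTL1.3 replicate 2), and BAX from -0.01 to 0.124 over both guides and from -0.075 to 0.193 with sgMETTL1.3. The guide difference ranged from -0.138 to 0.13 for BAX (0.024 without sgMETTL1.6 replicate 1), from -0.041 to 0.041 for BID (0.002 likewise), from -0.093 to 0.012 for BBC3 and from -0.153 to 0.02 for PMAIP1. Replicate deviations over all genes tested correlated at -0.005 between sgNS and sgMETTL1.3, 0.21 between sgNS and sgMETTL1.6, and 0.15 between the guides. The main fit did not use the replicate number. A block on it called 6976 genes over both guides, against 6484 in the main fit. With the replicate block, 7 members were called with sgMETTL1.6, MCL1 (-0.061, limma, adjusted p = 0.0402) and BCL2L1 (-0.136, adjusted p = 0.0383) among them, and BCL2L1 differed between the guides (adjusted p = 0.032). Leaving out ribosomal protein genes also called 7 with sgMETTL1.6, adding MCL1 (-0.075, adjusted p = 0.0445) and BCL2L1 (-0.151, adjusted p = 0.0396), and the filter of 5 TPM also called the guide difference of BCL2L1 (adjusted p = 0.0486). Depth cannot be read from TPM, so the counting error of low genes such as BCL2A1 is unknown.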
